A study of Mus musculus with 24 samples.

Results

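The tricarboxylic acid (TCA) cycle and the breakdown of branched-chain amino acids were examined as a set of 36 named genes out of the 24825 genes listed in the data. The members were taken by gene symbol: 7 genes that bring pyruvate into the mitochondrion and the cycle, 13 genes of the cycle, 15 genes of leucine, valine and isoleucine breakdown, and Oxct1, which activates ketone bodies. All 36 were among the 12640 genes tested. Messenger RNA was sequenced from immortalized inguinal stromal vascular fraction cells, the precursor-containing fraction of mouse subcutaneous fat. All 24 libraries came from cells of Nfia flox/flox mice, whose exon 2 of the transcription factor gene Nfia lies between loxP sites, carried SV40 large T antigen, and were infected with retrovirus. The ctrl cells received an empty vector, the Cre cells received Cre recombinase, the Cre + NFIA cells (labelled Cre_NFIA) received Cre together with full-length NFIA carrying a FLAG tag, and the Cre + NFIA Δpro#3 cells (labelled Cre_deltapro#3) received Cre together with a FLAG-tagged mutant that lacks a proline-rich segment at the C-terminus of NFIA. Each of these 4 cell types was sampled at day 0 and at day 7 of differentiation with a thermogenic adipocyte cocktail of IBMX, indomethacin, dexamethasone, insulin, T3 and rosiglitazone, with 3 replicates per group. The cells are an immortalized line. In Cre + NFIA and Cre + NFIA Δpro#3 a virus supplied NFIA or the mutant, with Nfia RNA above the level of ctrl and Cre. No source used here states that the replicates were separate cultures, so the p-values below measure the spread between these samples, which may be technical.

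Pyruvate enters the mitochondrion through the carrier formed by Mpc1 and Mpc2. There the pyruvate dehydrogenase complex turns it into acetyl-CoA, or pyruvate carboxylase turns it into oxaloacetate. The TCA cycle oxidizes acetyl-CoA and feeds the respiratory chain, and in adipocytes it also exports citrate as the carbon for fatty acid synthesis. Branched-chain amino acids are first transaminated, then decarboxylated by the branched-chain ketoacid dehydrogenase complex, and their carbon reaches the cycle as acetyl-CoA or succinyl-CoA. Mature fat cells, brown and beige cells above all, are known for high activity of both pathways.

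The values are FPKM, the authors' fragments per kilobase of gene per 1000000 reads counted on genes, and a difference is given on the log2(FPKM + 1) scale with its standard error. A gene passed the test at an adjusted p under 0.05 in limma, with Benjamini-Hochberg adjustment over all 12640 genes. A gene was called at 3-fold if it passed and differed by at least 3-fold. Values of single libraries are given in the order of replicates 1, 2 and 3. Counts of genes that rose or fell, or were higher or lower, are counts of genes that passed.

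The libraries held 7.73 to 14.62 M (1000000) reads on genes, and no member had fewer than 63 reads in any library. Nfia stood at 9.15 to 9.81 FPKM in ctrl and 9.49 to 10.7 in Cre at day 7 (difference 0.07, limma adjusted p = 0.426). Gene-level reads do not show whether exon 2 is gone, so the deletion was not checked here, and Cre is used as the label of those libraries. The paper reports from PCR of genomic DNA that Cre recombined the gene efficiently. It also reports from RT-qPCR and Western blot that NFIA mRNA and protein were almost gone in Cre cells. With the transgenes, whose reads are included, Nfia stood at 83.9 to 97.1 FPKM in Cre + NFIA and 95.0 to 111 in Cre + NFIA Δpro#3. The labelled cell type held up on its markers: summed FPKM of 12 adipocyte markers at day 7 was 22964.6 to 26651.9 in ctrl, 4600.2 to 9843.4 in Cre, 21965.9 to 22182.1 in Cre + NFIA and 884.0 to 2236.5 in Cre + NFIA Δpro#3. The 10 precursor and fibroblast markers summed to 1302.7 to 1422.2, 2293.8 to 2586.2, 1001.6 to 1127.3 and 2520.9 to 2906.0 FPKM in the same order. Of the markers of other cells, Myod1, Myh4 (muscle) and Adgre1 (macrophage) were at 0 in every library, and the 8 muscle markers together reached at most 6.66 FPKM. The endothelial markers together reached at most 10.2 FPKM, with Tek up to 7.34 and Kdr up to 3.73. The macrophage and leukocyte markers together reached at most 11.3 FPKM, with Cd68 up to 8.23 and Csf1r up to 3.64.

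The adipocyte markers therefore moved in each comparison with Cre at day 7, and in bulk RNA fewer fat cells and less RNA per fat cell cannot be told apart. The Cre libraries of day 7 also stood apart from each other. Cre replicate 3 held the lowest of the 3 Cre values for 32 members and Cre replicate 2 the highest for 32. How many of all genes had this order was not counted. The mean log2(FPKM + 1) of the adipocyte markers had the same order, at 7.14, 7.42 and 6.52 in Cre replicates 1, 2 and 3, and was 4.51, 5.50 and 5.66 in Cre + NFIA Δpro#3. Counts without single libraries of these groups are given beside the comparisons of each group with Cre or ctrl at day 7. For the changes between days in Cre and for the interactions, the calls lost in such refits are named. The part of the marker differences in the results was not tested.

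The start regions of the members were searched for 4 motifs in the 250 bases before each annotated start, on both strands (RefSeq promoter sequences, build GRCm38.p6, which is not the mm9 build of the counts). A window was available for 34 members, not for Dbt and Idh3a, and 8 had more than 1 start. TTGGCA, which is a part of the nuclear factor I motif and has the reverse complement TGCCAA, was found in 8 of 34 members (23.5%) and in 14.12% of 27025 genes. The full motif was not searched. The members were Aldh6a1, Bcat2, Dlat, Mdh1, Oxct1, Pcca, Pdhb and Sucla2. The nuclear respiratory factor 1 motif GCGCATGCG was found in Ogdh and Pccb (5.9% of members, 1.643% of genes). The estrogen-related receptor motif TCAAGGTCA (0.422% of genes) and the repeat end AAAGGTCA bound by PPAR and RXR (1.55% of genes) were found in none of the 34. Some windows with this part of the nuclear factor I motif and the window of Pccb are shown to place the letters relative to genes whose values follow, with the matched letters in capitals. Those of Mdh1, Oxct1, Sucla2 and Ogdh are not shown. Oxct1 has matches 69 and 45 bases before the start and did not pass in Cre against ctrl at day 7. A link between a match and the change of a gene was not tested. A match is a run of letters and no evidence of binding.
Pdhb, chr14:8173110-8173155, minus strand, motif 143 bases before the start: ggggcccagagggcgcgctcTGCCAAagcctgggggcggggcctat
Dlat, chr9:50659825-50659870, minus strand, motif 70 bases before the start: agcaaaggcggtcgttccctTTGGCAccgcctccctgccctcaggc
Bcat2, chr7:45570064-45570109, plus strand, motif 69 bases before the start: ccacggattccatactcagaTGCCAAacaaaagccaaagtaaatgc
Aldh6a1, chr12:84448337-84448382, minus strand, motif 45 bases before the start: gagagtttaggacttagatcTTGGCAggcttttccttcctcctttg
Pcca, chr14:122484296-122484341, plus strand, motif 49 bases before the start: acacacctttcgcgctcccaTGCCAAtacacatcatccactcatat
Pccb, chr9:101034891-101034939, minus strand, motif 35 bases before the start: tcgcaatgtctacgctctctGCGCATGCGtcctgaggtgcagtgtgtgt

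In undifferentiated ctrl cells the mitochondrial malate dehydrogenase gene Mdh2 had the highest level of the members, at a mean of 200 FPKM. Idh2, Oxct1 and Cs followed at 97.9, 95.9 and 93.6 FPKM, with overlapping libraries between neighbours, and Bckdhb was lowest at 5.69. At day 7 Mdh2 still led, at 837 FPKM, followed by the pyruvate carboxylase gene Pcx at 705 and the citrate synthase gene Cs at 685. Pcx and Cs overlapped, and Mdh2 stood above both. Pcx had moved from rank 21 of 36 to rank 2, and Mpc2 from rank 20 to rank 4, at 414 FPKM. At the lower end of day 7 stood Suclg2 at 15.4, Acadsb at 9.74 and Bcat1 at 3.24 FPKM, each without overlap with its neighbour. The median member lay at the percentile 71.8 of all genes by level in ctrl cells at day 0 and 92.2 at day 7.

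**Figure D1:**
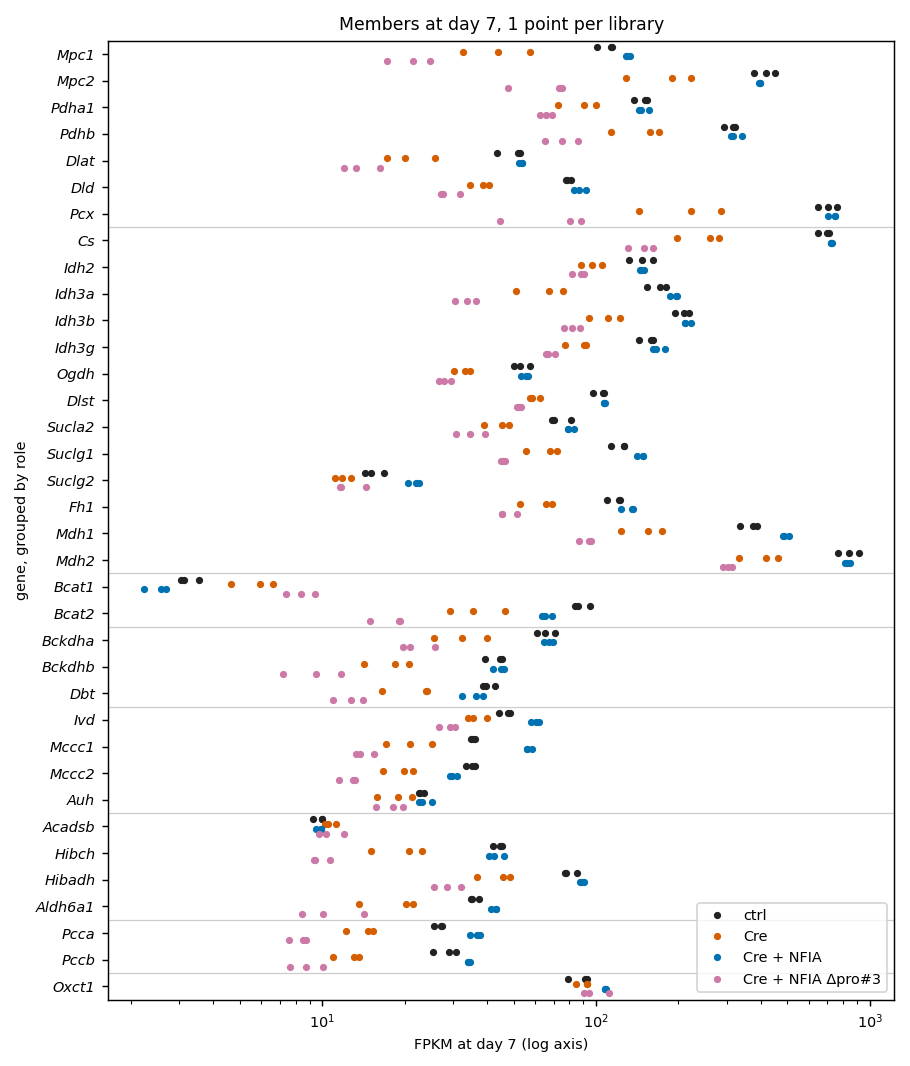
FPKM (log axis) of each of the 36 members at day 7, 1 point per library, coloured by cell type and ordered by role. For most members the ctrl and Cre + NFIA points lie together at the top, Cre below them and Cre + NFIA Δpro#3 lowest.

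The comparison of Cre with ctrl at day 7 asked what the Cre virus did to these genes in differentiated cells. Of the 36 members 33 were lower and 1 was higher in Cre, where 22.7% of all genes tested were lower and 36.1% higher. The median difference of the members was -0.91, against 0.091 over all genes, and the median member stood in Cre at 52.8% of its ctrl mean. The count was 33 without Cre replicate 3, with 32 lower and 1 higher. At 3-fold 1 member was called lower, Pcx (1.27% of all genes). All 11 adipocyte markers tested were lower in Cre, with a median of -1.79, and 7 of 9 precursor and fibroblast markers were higher.

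All 7 genes of pyruvate entry were lower in Cre, with a median of -1.21. Pcx (mm9 chr19:4510472-4621752, plus strand) encodes pyruvate carboxylase, which makes oxaloacetate for the cycle and for citrate export. Its FPKM at day 7 was 649, 761 and 705 in ctrl and 223, 285 and 143 in Cre, and the groups did not overlap (difference -1.75 ± 0.253 (SE, n = 3), limma adjusted p = 0.0001). The carrier subunit Mpc1 stood at 101, 113 and 114 FPKM in ctrl and 43.8, 57.2 and 32.6 in Cre. Its partner Mpc2 stood at 376, 449 and 418 FPKM in ctrl and 190, 223 and 129 in Cre. Both subunits were therefore lower in every Cre library than in every ctrl library, by 1.31 and 1.23 on the log2 scale. The subunits of pyruvate dehydrogenase differed by -0.76 (Pdha1) and -1.10 (Pdhb) for E1, -1.21 (Dlat) for E2 and -1.04 (Dld) for E3, which the complex shares with the other ketoacid dehydrogenases.

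The 13 genes of the TCA cycle were all lower in Cre, between -0.35 and -1.49, with a median of -0.90. Cs (chr10:127774888-127799535, plus strand), the entry enzyme of the cycle, stood at 646, 698 and 710 FPKM in ctrl and 261, 282 and 197 in Cre (difference -1.49 ± 0.116, limma adjusted p = 1.38e-06). Idh3a (chr9:54434288-54452468, plus strand), the catalytic subunit of NAD-dependent isocitrate dehydrogenase, stood at 154, 171 and 180 FPKM in ctrl and 67.6, 75.7 and 51.1 in Cre (difference -1.38 ± 0.118, limma adjusted p = 2.33e-06). Neither gene had overlapping libraries. The other subunits of the same enzyme, Idh3b and Idh3g, differed by -0.93 and -0.83, and the NADP-dependent Idh2 by -0.59. The oxoglutarate dehydrogenase genes Ogdh and Dlst differed by -0.69 and -0.79, the succinyl-CoA ligase alpha subunit Suclg1 by -0.90, and fumarase (Fh1) by -0.91.

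Of the genes of branched-chain breakdown, the mitochondrial transaminase gene Bcat2 (chr7:52825523-52845080, plus strand) was lower in Cre, at 35.4, 46.4 and 29.3 FPKM against 86.1, 94.8 and 83.9 in ctrl (difference -1.25 ± 0.139, limma adjusted p = 1.34e-05). The ketoacid dehydrogenase subunits Bckdha, Bckdhb and Dbt were all lower, by 1.00, 1.25 and 0.90 on the log2 scale. In the leucine arm isovaleryl-CoA dehydrogenase (Ivd) differed by -0.35, the methylcrotonyl-CoA carboxylase subunits Mccc1 and Mccc2 by -0.74 and -0.82, and the hydratase Auh by -0.29. Auh did not pass without Cre replicate 3 (limma adjusted p = 0.108), without ctrl replicate 1 (adjusted p = 0.066), without ctrl replicate 3 (adjusted p = 0.0501) or without a filter on low genes (adjusted p = 0.0759). In the valine arm Hibch, Hibadh and Aldh6a1, which carry valine carbon to propionyl-CoA, differed by -1.14, -0.86 and -0.95. Both subunits of propionyl-CoA carboxylase were lower, Pcca by 0.88 and Pccb by 1.12 on the log2 scale.

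The question of Cre + NFIA against Cre was whether full-length NFIA moves these genes. At day 7, 34 members were higher and 1 lower in Cre + NFIA, beside 27.0% of all genes higher and 35.9% lower, with a median of 1.04 against -0.057 over all genes. All 11 adipocyte markers tested were higher, with a median of 1.64. Acadsb did not pass. Without Cre replicate 3 the counts were 33 higher and 1 lower. At 3-fold Pcx and Mdh1 were called higher (2.13% of all genes). This comparison and the one above share the Cre libraries, so their values are not independent.

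Every gene of pyruvate entry and of the TCA cycle was higher in Cre + NFIA than in Cre, with medians of 1.18 and 0.98. Pcx stood at 747, 703 and 744 FPKM in Cre + NFIA, above all Cre libraries (difference 1.80 ± 0.253, limma adjusted p = 6e-05). Mdh1 (chr11:21456790-21472370, minus strand), the cytosolic malate dehydrogenase, stood at 487, 506 and 480 FPKM in Cre + NFIA and at 155, 174 and 123 in Cre (difference 1.71 ± 0.105, limma adjusted p = 9.04e-08). Idh3a stood at 196, 198 and 187 FPKM in Cre + NFIA (difference 1.58 ± 0.118, limma adjusted p = 3.69e-07). These 3 genes had the largest differences, and none of them overlapped with Cre. Cs and Mpc1 differed by 1.56 and 1.57, Fh1 by 1.07, Suclg1 by 1.16, Dlat by 1.32 and Idh2 by 0.60. Of the genes of branched-chain breakdown Mccc1, Pccb and Pcca differed by 1.40, 1.39 and 1.31, Bckdhb by 1.28, Aldh6a1 by 1.19 and Mccc2 by 0.62.

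**Figure D2:**
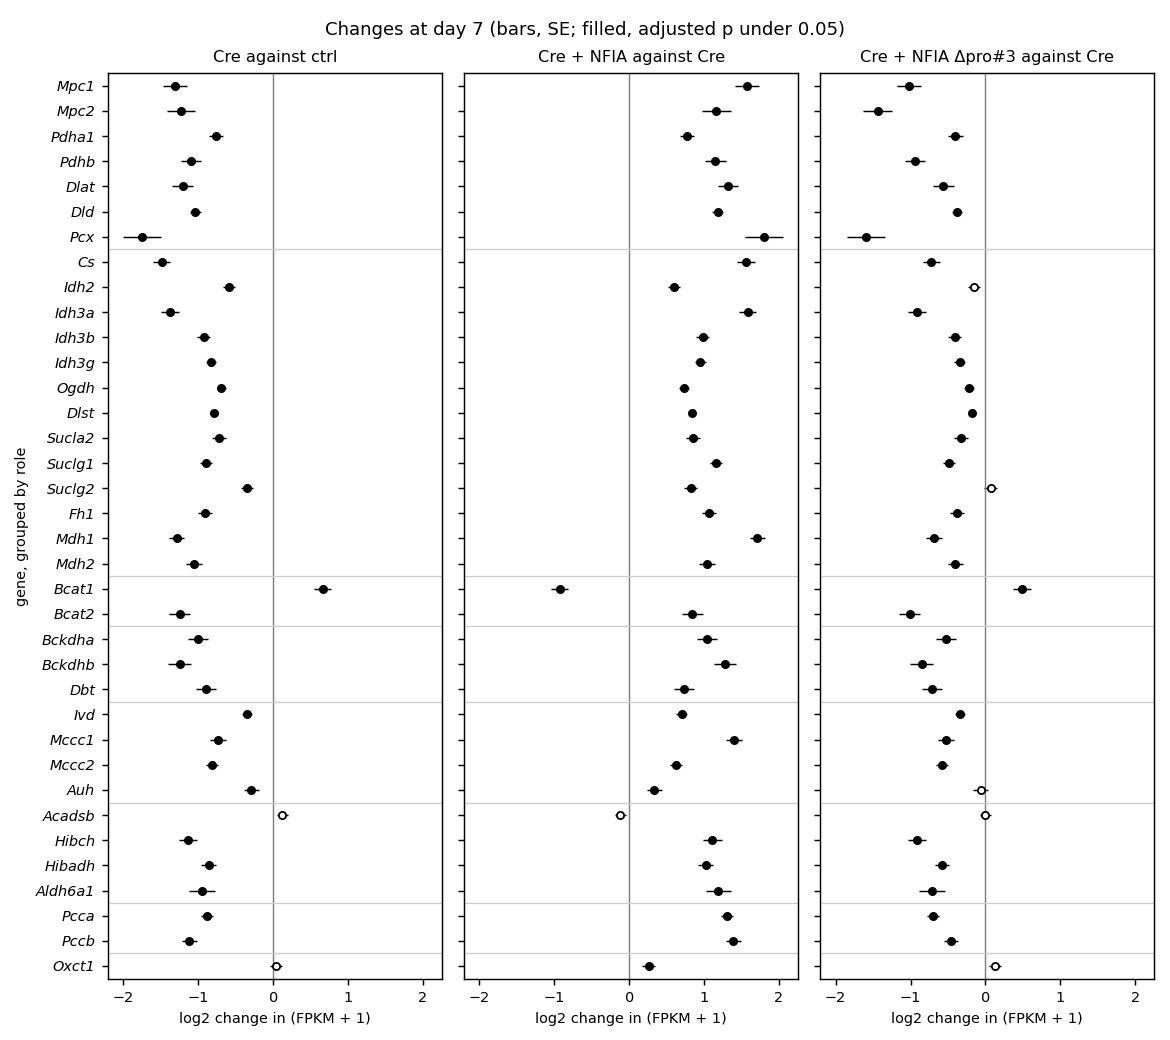
Difference in log2(FPKM + 1) with its standard error for each member at day 7 in 3 comparisons (Cre against ctrl, Cre + NFIA against Cre, Cre + NFIA Δpro#3 against Cre), where filled points passed at an adjusted p under 0.05. Nearly all points lie left of 0 in the left and right panels and right of 0 in the middle panel, with Bcat1 on the other side in each.

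Against ctrl, Cre + NFIA differed in few members. The median member stood at 105.0% of its ctrl mean, the median difference was 0.07, and 6 members passed, all higher (8.81% of all genes higher, 9.15% lower). The adipocyte markers summed to 21965.9 to 22182.1 FPKM in Cre + NFIA and 22964.6 to 26651.9 in ctrl. Fabp4 made up most of these sums, at a mean of 14618.0 FPKM in Cre + NFIA and 17544.1 in ctrl. The mean log2(FPKM + 1) of the markers, which weighs each marker equally, was 8.63 to 8.66 in Cre + NFIA. These values lay within the range of the ctrl libraries, so the lower sum does not show that the markers as a set were lower. The leucine gene Mccc1 (chr3:35858234-35899600, minus strand) stood at 56.0, 58.3 and 55.8 FPKM in Cre + NFIA and 34.9, 35.5 and 36.1 in ctrl (difference 0.66 ± 0.105, limma adjusted p = 0.00128). Suclg2, the GTP-forming beta subunit of succinyl-CoA ligase, stood at 22.1, 22.5 and 20.6 FPKM against 14.3, 15.1 and 16.8 (difference 0.48 ± 0.086, limma adjusted p = 0.00303). Pcca stood at 37.6, 36.8 and 34.7 FPKM against 25.7, 27.2 and 27.3 (difference 0.43 ± 0.08, limma adjusted p = 0.00367). For these 3 genes each Cre + NFIA library lay above each ctrl library. Mdh1, Ivd and Oxct1 differed by 0.42, 0.35 and 0.31. Mdh1 did not pass without ctrl replicate 1 (limma adjusted p = 0.0686) or without Cre + NFIA replicate 2 (adjusted p = 0.0605), and Oxct1 did not pass without ctrl replicate 2 (adjusted p = 0.0865) or without any of the Cre + NFIA replicates (adjusted p = 0.0635 to 0.0749). A fit on the libraries of these groups alone gave 12 members, 10 higher and 2 lower.

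The mutant NFIA Δpro#3 was compared with Cre to ask what the protein does without its proline-rich segment. In this comparison 30 members were lower and 1 higher at day 7, beside 10.0% of all genes lower and 7.7% higher, and the median was -0.51 against 0.018 over all genes. All 11 adipocyte markers tested were lower in Cre + NFIA Δpro#3, with a median of -2.08. The count fell from 31 to 21, all lower, without Cre replicate 2 or without Cre + NFIA Δpro#3 replicate 1, and was 24 without Cre replicate 1 and 31 without Cre replicate 3. A fit on the libraries of these groups alone gave 18. The median member stood in Cre + NFIA Δpro#3 at 36.2% of its ctrl mean.

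The genes of pyruvate entry were all lower with the mutant, with a median of -0.94. Of these 7 calls 5 were kept without Cre replicate 2 or without Cre + NFIA Δpro#3 replicate 1, where Dlat and Pdha1 did not pass. Without Cre replicate 1, 6 were kept. Pcx stood at 44.5, 80.6 and 88.1 FPKM in Cre + NFIA Δpro#3, below all Cre libraries (difference -1.60 ± 0.253, limma adjusted p = 0.00148), and was the member called at 3-fold (0.593% of all genes lower). Mpc2 stood at 47.8, 73.2 and 75.3 FPKM (difference -1.44 ± 0.192, limma adjusted p = 0.000719), and Mpc1 at 17.3, 24.7 and 21.4 (difference -1.02 ± 0.165, limma adjusted p = 0.00162). Both subunits of the carrier lay below every Cre library. In the TCA cycle 11 of 13 genes were lower, with a median of -0.38. Idh3a had the largest of these differences, -0.91, at 30.6, 33.8 and 36.4 FPKM in the mutant. Without Cre replicate 2, and likewise without Cre + NFIA Δpro#3 replicate 1, 6 of the 11 calls were kept, and Dlst, Fh1, Mdh2, Ogdh and Sucla2 did not pass (limma adjusted p = 0.0892, 0.0655, 0.079, 0.147 and 0.136 without Cre replicate 2). Without Cre replicate 1 or Cre + NFIA Δpro#3 replicate 2, 7 of the 11 were kept. Idh2 differed by -0.15 and did not pass (limma adjusted p = 0.226). In branched-chain breakdown Bcat2 differed by -1.01, Hibch by -0.91, Bckdhb by -0.85, and Dbt and Aldh6a1 by -0.71 each. Aldh6a1 did not pass without Cre replicate 1 (limma adjusted p = 0.0616), Cre replicate 2 (adjusted p = 0.0649) or Cre + NFIA Δpro#3 replicate 1 (adjusted p = 0.063).

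Among the comparisons of cell types at day 7, that of the mutant with full-length NFIA gave the largest median difference. Of the 36 members 33 were lower with the mutant and 1 higher (28.9% and 40.4% of all genes), with a median of -1.57, against 0.097 over all genes. At 3-fold 17 members were called lower, beside 4.6% of all genes. Pcx differed by -3.40 ± 0.253 (limma adjusted p = 1.86e-07), a 10.6-fold difference on this scale. Mpc2 and Mpc1 differed by -2.61 ± 0.192 (limma adjusted p = 1.72e-07) and -2.59 ± 0.165 (limma adjusted p = 5.75e-08). Idh3a, Mdh1 and Cs followed at -2.49, -2.40 and -2.29, and Bcat2 differed by -1.85. The adipocyte markers had a median of -3.73, with all 11 tested lower.

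**Figure D3:**
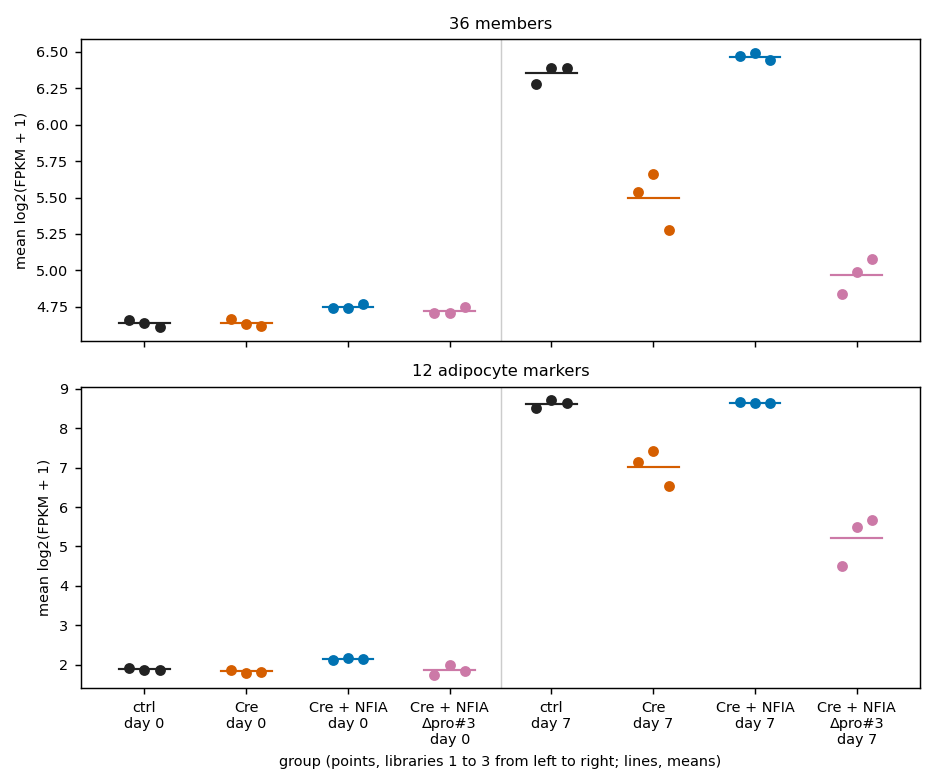
Mean log2(FPKM + 1) in each library over the 36 members (upper panel) and over 12 adipocyte markers (lower panel) in the 8 groups, with the group mean as a line. The member means lie between 4.61 and 4.77 in all libraries of day 0 and spread at day 7 to 6.28 to 6.39 in ctrl, 5.28 to 5.66 in Cre, 6.44 to 6.49 in Cre + NFIA and 4.84 to 5.08 in Cre + NFIA Δpro#3.

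The plot of library means shows the members beside the adipocyte markers. Within Cre at day 7 replicate 3 was lowest in both panels and replicate 2 highest, and among the mutant libraries replicate 1 was lowest in both. Summed over the 36 members, FPKM at day 7 was 5175.2 to 5823.4 in ctrl, 2123.9 to 2972.4 in Cre, 5858.5 to 5970.3 in Cre + NFIA and 1549.0 to 1810.0 in Cre + NFIA Δpro#3, against 1253.1 to 1474.0 in all libraries of day 0.

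A few members did not follow the rest. Bcat1 (chr6:144942355-145024704, minus strand), the cytosolic branched-chain transaminase, moved against its mitochondrial partner Bcat2 in every comparison with Cre at day 7. It stood at 3.55, 3.12 and 3.06 FPKM in ctrl, 5.94, 4.64 and 6.62 in Cre, 2.23, 2.59 and 2.68 in Cre + NFIA and 9.42, 8.37 and 7.39 in Cre + NFIA Δpro#3. No pair of these 4 groups overlapped, and the order was the reverse of that of Bcat2 between Cre and each of the other groups. The differences were 0.66 ± 0.117 for Cre against ctrl (limma adjusted p = 0.000454), -0.93 ± 0.117 for Cre + NFIA against Cre (limma adjusted p = 2.33e-05) and 0.49 ± 0.117 for Cre + NFIA Δpro#3 against Cre (limma adjusted p = 0.0141). The last did not pass without Cre replicate 2 (limma adjusted p = 0.0554), without Cre + NFIA Δpro#3 replicate 1 (adjusted p = 0.0666) or in the fit on those groups alone (adjusted p = 0.0684). Between the mutant and full-length NFIA the difference was 1.42 ± 0.117 (limma adjusted p = 4.33e-07). Bcat1 is a low gene. Of the 9 precursor and fibroblast markers tested 7 were higher and 1 lower in Cre than in ctrl and 8 were lower in Cre + NFIA than in Cre, whereas 2 were higher and 1 lower in the mutant than in Cre. Their part in the result was not tested.

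Acadsb (chr7:138554115-138589725, plus strand), the short/branched-chain acyl-CoA dehydrogenase of isoleucine breakdown, passed in none of the comparisons at day 7. Its libraries read 10.0, 9.96 and 9.25 FPKM in ctrl, 10.2, 10.5 and 11.2 in Cre, 9.87, 9.90 and 9.50 in Cre + NFIA and 10.3, 9.70 and 12 in Cre + NFIA Δpro#3. For Cre against ctrl the difference was 0.12 with a 95% interval from -0.04 to 0.28 (limma adjusted p = 0.181). This interval does not reach the median of the members, -0.91. Auh, with 23.6, 22.6 and 22.7 FPKM in ctrl and 18.9, 21.3 and 15.8 in Cre, was higher in Cre + NFIA, at 22.5, 25.2 and 23.2 (difference 0.33 ± 0.1, limma adjusted p = 0.0118, but adjusted p = 0.0514 without Cre replicate 3). With the mutant, at 15.7, 18.1 and 19.7 FPKM, Auh overlapped with Cre.

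Oxct1 (chr15:3976383-4105344, plus strand), the succinyl-CoA transferase that activates acetoacetate, stood at 92.6, 78.7 and 90.9 FPKM in ctrl and 92.6, 84.4 and 93.0 in Cre at day 7, and these groups overlapped (difference 0.04, 95% interval -0.14 to 0.23, limma adjusted p = 0.675). In Cre + NFIA it stood at 108, 109 and 108 FPKM (difference to Cre 0.26 ± 0.084, limma adjusted p = 0.0156). That call was lost without Cre replicate 2 (limma adjusted p = 0.0594) and after quantile normalization (adjusted p = 0.351). With the mutant the libraries stood at 94.3, 90.1 and 112 FPKM and overlapped with both Cre and Cre + NFIA.

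**Figure D4:**
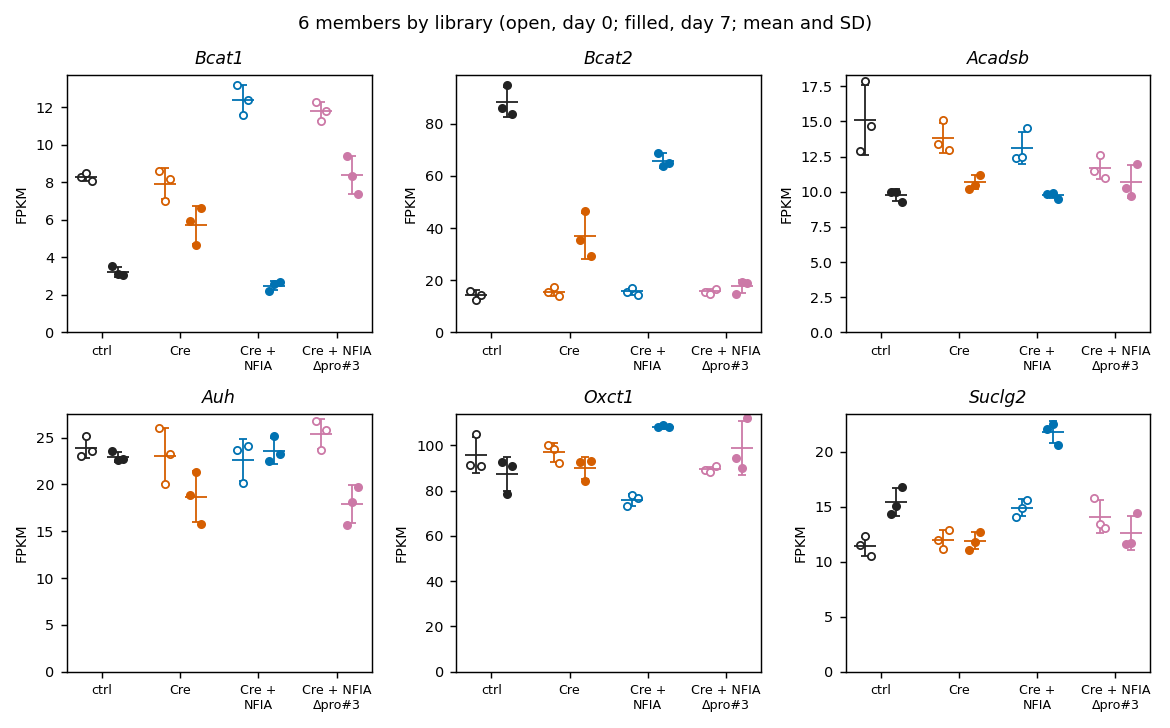
FPKM of Bcat1, Bcat2, Acadsb, Auh, Oxct1 and Suclg2 in every library, with open points for day 0, filled points for day 7, and the mean and SD of 3 libraries. Bcat1 and Bcat2 show opposite orders of the 4 cell types at day 7 apart from ctrl and Cre + NFIA, and the Acadsb libraries of day 7 all lie between 9.25 and 12 FPKM.

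The ratio of isoenzymes and partner subunits was followed in 8 pairs, without a test. The ratio of Bcat2 to Bcat1 FPKM at day 7 was 27.4 ± 3.07 (SD, n = 3) in ctrl, 6.80 ± 2.88 in Cre, 26.6 ± 3.77 in Cre + NFIA and 2.15 ± 0.516 in Cre + NFIA Δpro#3, after 1.27 to 1.99 in the group means of day 0. In Cre + NFIA both genes lay below ctrl without overlap, although neither passed in that comparison. Bcat2 stood there at 69.0, 63.7 and 64.9 FPKM, 74.6% of its ctrl mean, and Bcat1 at 77.2% of its ctrl mean. The ratio of cytosolic Mdh1 to mitochondrial Mdh2 was 0.438 ± 0.0107 in ctrl, 0.372 ± 0.00577 in Cre, 0.593 ± 0.0257 in Cre + NFIA and 0.304 ± 0.00594 in Cre + NFIA Δpro#3. Mdh2 (chr5:136254350-136266268, plus strand) itself stood at 762, 910 and 839 FPKM in ctrl, 419, 461 and 334 in Cre, 845, 812 and 827 in Cre + NFIA and 290, 315 and 304 in Cre + NFIA Δpro#3. Its ctrl and Cre + NFIA libraries overlapped, whereas Mdh1 in Cre + NFIA lay above ctrl, where it stood at 336, 388 and 375 FPKM.

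The ATP-forming Sucla2 stood at 70.0, 69.3 and 80.7 FPKM in ctrl, 45.5, 48.1 and 39.1 in Cre, 79.3, 83.2 and 79.0 in Cre + NFIA and 34.8, 30.8 and 39.4 in Cre + NFIA Δpro#3. Its ratio to the GTP-forming Suclg2 was 4.77 ± 0.154, 3.74 ± 0.572, 3.70 ± 0.126 and 2.79 ± 0.186 in that order. Suclg2 stood at 11.1, 11.8 and 12.7 FPKM in Cre and 11.6, 11.7 and 14.4 in Cre + NFIA Δpro#3, which overlapped (difference 0.07, limma adjusted p = 0.636). The carboxylase subunits Mccc1 and Mccc2 had a ratio of 1.02 ± 0.0282 in ctrl, 1.09 ± 0.0815 in Cre and 1.13 ± 0.0916 in Cre + NFIA Δpro#3, but 1.89 ± 0.0193 in Cre + NFIA, where Mccc1 was above ctrl and Mccc2, at 29.4, 31.0 and 29.8 FPKM, lay below the 33.4, 36 and 35.2 of ctrl without passing (difference -0.21, limma adjusted p = 0.101). The ratio of Mpc2 to Mpc1 was 3.79 ± 0.167 in ctrl, 4.06 ± 0.237 in Cre, 3.03 ± 0.0452 in Cre + NFIA and 3.08 ± 0.394 in Cre + NFIA Δpro#3. The ratio of Pcca to Pccb stayed near 1 in every group, at 0.946 ± 0.0623, 1.12 ± 0.00892, 1.06 ± 0.0423 and 0.942 ± 0.0826 at day 7 and 0.835 to 0.884 in the group means of day 0. Pdhb to Pdha1 was 2.11 ± 0.0375, 1.67 ± 0.105, 2.17 ± 0.0228 and 1.14 ± 0.104, and Bckdha to Bckdhb was 1.52 ± 0.0546, 1.83 ± 0.0845, 1.52 ± 0.127 and 2.42 ± 0.544.

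Another 49 genes of the same pathways, of which 46 were tested, stood beside the members: succinate dehydrogenase, the regulators of the dehydrogenase complexes, the carriers and the enzymes next to the cycle. At day 7, 33 were lower and 6 higher in Cre against ctrl (median -0.60, beside 22.7% and 36.1% of all genes), and 34 were higher and 8 lower in Cre + NFIA against Cre (median 0.72, beside 27.0% and 35.9%). In the mutant 27 were lower and 4 higher than in Cre (median -0.28, beside 10.0% and 7.7%), and 36 lower and 9 higher than with full-length NFIA (median -0.98, beside 28.9% and 40.4%). In Cre + NFIA against ctrl 6 were higher and 5 lower, which is 13% and 10.9% of the 46 tested, beside 8.81% and 9.15% of all genes. The dicarboxylate carrier Slc25a10 had the largest difference, at 142, 176 and 158 FPKM in ctrl, 49.1, 61.8 and 37.6 in Cre, 212, 203 and 209 in Cre + NFIA and 17.5, 26.1 and 25 in Cre + NFIA Δpro#3. No pair of these groups overlapped (Cre against ctrl -1.69 ± 0.169, limma adjusted p = 6.58e-06). The cytosolic aconitase Aco1 and the citrate carrier Slc25a1 were lower in Cre by 1.51 and 1.49 on the log2 scale. In Cre + NFIA against Cre the largest rises after Slc25a10 (2.08) were those of Aco1 (1.65) and Acat1 (1.64), a thiolase of isoleucine and ketone metabolism. In the mutant against Cre, malic enzyme Me1, the thiolase subunit Hadhb and Slc25a10 fell the most, by 1.40, 1.11 and 1.07 on the log2 scale, whereas the transaminase Got1 was higher by 0.50 and Pdp1 by 0.47. Against full-length NFIA, Slc25a10, Me1 and Aco1 were lower with the mutant by 3.15, 2.77 and 2.58 on the log2 scale, and Pdk3 and Abat were higher by 1.32 and 0.97. Abat, the transaminase of GABA and of valine-derived semialdehyde, was higher in Cre than in ctrl by 0.61 and lower in Cre + NFIA than in Cre by 1.51 and than in ctrl by 0.90. Cre + NFIA also differed from ctrl by -0.67 for Got2 and -0.50 for Ldhb, and by 0.56 for Pdk1, 0.48 for Ldha and 0.39 for Acat1.

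The kinases that switch off the pyruvate and branched-chain complexes did not all move in 1 direction. Pdk3, a pyruvate dehydrogenase kinase, stood at 10.3, 7.76 and 8.61 FPKM in ctrl, 21.8, 18 and 26.4 in Cre, 7.44, 8.26 and 7.35 in Cre + NFIA and 21.3, 18.6 and 22.4 in Cre + NFIA Δpro#3. It was higher in Cre than in ctrl by 1.21 ± 0.129 (limma adjusted p = 1e-05), against the complex it regulates, and Cre and the mutant overlapped (limma adjusted p = 0.754). Pdk2 and Pdk4 moved with the members, by -0.60 and -1.12 in Cre against ctrl, 0.67 and 0.84 in Cre + NFIA against Cre and -0.79 and -0.75 in the mutant against Cre. Pdk1 differed by 0.02 in Cre against ctrl (limma adjusted p = 0.874) and was higher by 0.54 in Cre + NFIA than in Cre. Of the activating phosphatases Pdp1 was higher in Cre by 0.41 and Pdp2 lower by 0.92, while the regulatory subunit Pdpr did not pass (-0.06, limma adjusted p = 0.67). The branched-chain kinase Bckdk differed by -0.61 in Cre against ctrl and by 0.64 in Cre + NFIA against Cre. Its opposing phosphatase Ppm1k differed by 0.19 in the first (limma adjusted p = 0.265) and was lower by 0.41 in the second.

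Before differentiation the members differed little. In Cre against ctrl at day 0, 1 member passed, Aldh6a1 (1.63% of all genes higher, 1.7% lower), the dehydrogenase of valine-derived semialdehyde. It stood at 14.1, 15.9 and 12.5 FPKM in ctrl and 11.1, 10.5 and 10.0 in Cre, without overlap (difference -0.39 ± 0.088, limma adjusted p = 0.0405). The call was lost in most refits that left out a library, with adjusted p up to 0.119 (without Cre replicate 3).

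With full-length NFIA 10 members were higher and 3 lower than in Cre at day 0 (14.7% and 12.9% of all genes), and the median difference was 0.07. Mpc2 stood at 34.4, 30.8 and 31.8 FPKM in Cre + NFIA and 20.1, 17.1 and 21.4 in Cre (difference 0.70 ± 0.091, limma adjusted p = 0.000234). Bcat1 stood at 13.2, 11.6 and 12.4 FPKM against 8.59, 6.99 and 8.2 (difference 0.59 ± 0.075, limma adjusted p = 0.000224). Neither gene overlapped, and Bcat1 was thus higher with NFIA at day 0 and lower at day 7. The other genes that were higher were Hibch (0.48), Pdhb (0.39), Cs (0.33), Idh3a (0.31), Fh1 (0.30), Suclg2 (0.28), Mdh2 (0.27) and Dlat (0.22). Oxct1 was lower at 73.0, 77.9 and 76.6 FPKM against 100, 98.3 and 92.1 (difference -0.35 ± 0.057, limma adjusted p = 0.00109), and Mccc2 was lower at 10.9, 11 and 11.4 FPKM against 13.4, 12.8 and 13.4 (-0.24). Idh2 was lower by 0.18. Of 6 refits that left out a library of these groups, 4 lost each of Mdh2, Suclg2 and Idh2 (limma adjusted p up to 0.105, 0.0925 and 0.106), 3 lost each of Fh1 and Dlat (up to 0.0963 and 0.0961) and 2 lost Idh3a (up to 0.0612), and the count of 13 ranged from 9 to 13. All 4 proliferation markers tested and 4 of 11 adipocyte markers were also higher in Cre + NFIA at day 0, and their part in these differences was not tested.

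With the mutant at day 0, 8 members were higher and 2 lower than in Cre (9.26% and 9.02% of all genes). Mpc2 at 31.6, 27.4 and 30.3 FPKM (difference 0.59 ± 0.091, limma adjusted p = 0.00157) and Bcat1 at 12.3, 11.3 and 11.8 (0.52 ± 0.075, limma adjusted p = 0.00103) lay above every Cre library, as with full-length NFIA. Hibch, Mdh2, Fh1, Pdhb, Cs and Dlst were higher by 0.34, 0.34, 0.31, 0.30, 0.18 and 0.18. Aldh6a1 at 6.92, 7.75 and 8.28 FPKM lay below every Cre library (difference -0.42 ± 0.088, limma adjusted p = 0.00866), and Mccc2 at 11.3, 11.7 and 12.2 FPKM was lower by 0.16. The Mccc2 call was lost in 6 of 6 refits that left out a library of these groups (limma adjusted p = 0.0527 to 0.145), that of Dlst in 5, those of Fh1 and Mdh2 in 3 each and that of Cs in 1. The count of 10 became 5 without Cre + NFIA Δpro#3 replicate 1 and 6 without its replicate 3. Of the adipocyte markers 2 were higher and 2 lower, and 3 of 4 proliferation markers were higher.

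Differentiation itself was followed within each cell type from day 0 to day 7. In ctrl 32 members rose and 2 fell (32.9% and 38.1% of all genes), with a median of 1.56, and 17 rose at least 3-fold (5.64%). In Cre 30 rose and 3 fell (30.0% and 21.6%), with a median of 0.72 and 7 at 3-fold (2.26%). The rise of Bckdha in Cre was lost in 4 of 6 refits that left out a library (limma adjusted p = 0.0554 to 0.187). That of Ivd was lost in 1 (limma adjusted p = 0.0852). In Cre + NFIA 33 rose and 2 fell (31.8% and 38.3%), with a median of 1.65, 20 risen at 3-fold (5.78%) and 1 fallen at 3-fold (3.31%). In Cre + NFIA Δpro#3 16 rose and 2 fell (24.5% and 17.0%), with a median of 0.16 and 1 at 3-fold (1.14%). The 18 members of the last count became 11 without day 7 replicate 3 and 19 without day 7 replicate 1.

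All 7 genes of pyruvate entry rose in each cell type, with medians of 2.77 in ctrl, 1.63 in Cre, 2.39 in Cre + NFIA and 0.38 in Cre + NFIA Δpro#3. In the mutant 3 of the 7 calls were kept without day 7 replicate 3, where Dlat, Dld, Pdha1 and Pdhb did not pass (limma adjusted p = 0.12, 0.0766, 0.168 and 0.0613). Without day 0 replicate 1, 2 or 3, the calls kept were 6, 5 and 6, and without day 7 replicate 2 they were 6. Pdha1 was lost in 5 of the 6 refits that left out a library (limma adjusted p = 0.0808 to 0.168). Pcx rose from a mean of 18.2 to 705 FPKM in ctrl, by 5.21 ± 0.198 or 36.9-fold on this scale. In the other cell types it rose from 21.2 to 217 FPKM in Cre (9.43-fold), from 18.8 to 731 in Cre + NFIA (37.0-fold) and from 21.2 to 71.1 in Cre + NFIA Δpro#3 (3.12-fold). Mpc2 rose 21.5-fold, 8.66-fold, 11.9-fold and 2.12-fold in the same order. Of the 13 TCA genes 13, 11, 13 and 3 rose, beside 32.9%, 30.0%, 31.8% and 24.5% of all genes. Their medians were 1.55, 0.60, 1.56 and 0.10, and Idh3a rose by 3.36, 1.95, 3.22 and 0.84. The 3 of 13 in the mutant are near the share of all genes. Of these 3 calls, that of Mdh1 was lost in 5 of 6 refits that left out a library (limma adjusted p = 0.0685 to 0.111). Bcat2 rose by 2.55, 1.18 and 2.01 in ctrl, Cre and Cre + NFIA, and its value was 0.16 in the mutant, which did not pass.

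Bcat1 and Acadsb fell during differentiation in ctrl, Cre and Cre + NFIA. Bcat1 stood at 8.29, 8.5 and 8.10 FPKM in ctrl at day 0 and fell by 1.13 there, by 0.41 in Cre, by 1.93 in Cre + NFIA and by 0.45 in the mutant, all on the log2 scale (SE 0.1, limma adjusted p = 1.91e-09, 0.00157, 3.11e-13 and 0.00104). Acadsb fell by 0.58, 0.35 and 0.39 on the log2 scale in the first 3 cell types (SE 0.093, limma adjusted p = 1.19e-05, 0.00394 and 0.00082). In the mutant its difference was -0.13 (limma adjusted p = 0.299). Auh fell by 0.49 on the log2 scale in the mutant and by 0.29 in Cre, where the call was lost in 2 of 6 refits that left out a library (limma adjusted p = 0.12 and 0.144). Oxct1 rose in Cre + NFIA by 0.51 (limma adjusted p = 3.16e-06), and its values of -0.13 in ctrl, -0.11 in Cre and 0.14 in the mutant did not pass. The change in Cre + NFIA differed from that in Cre by 0.61 ± 0.104 (limma adjusted p = 5.48e-05).

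**Figure D5:**
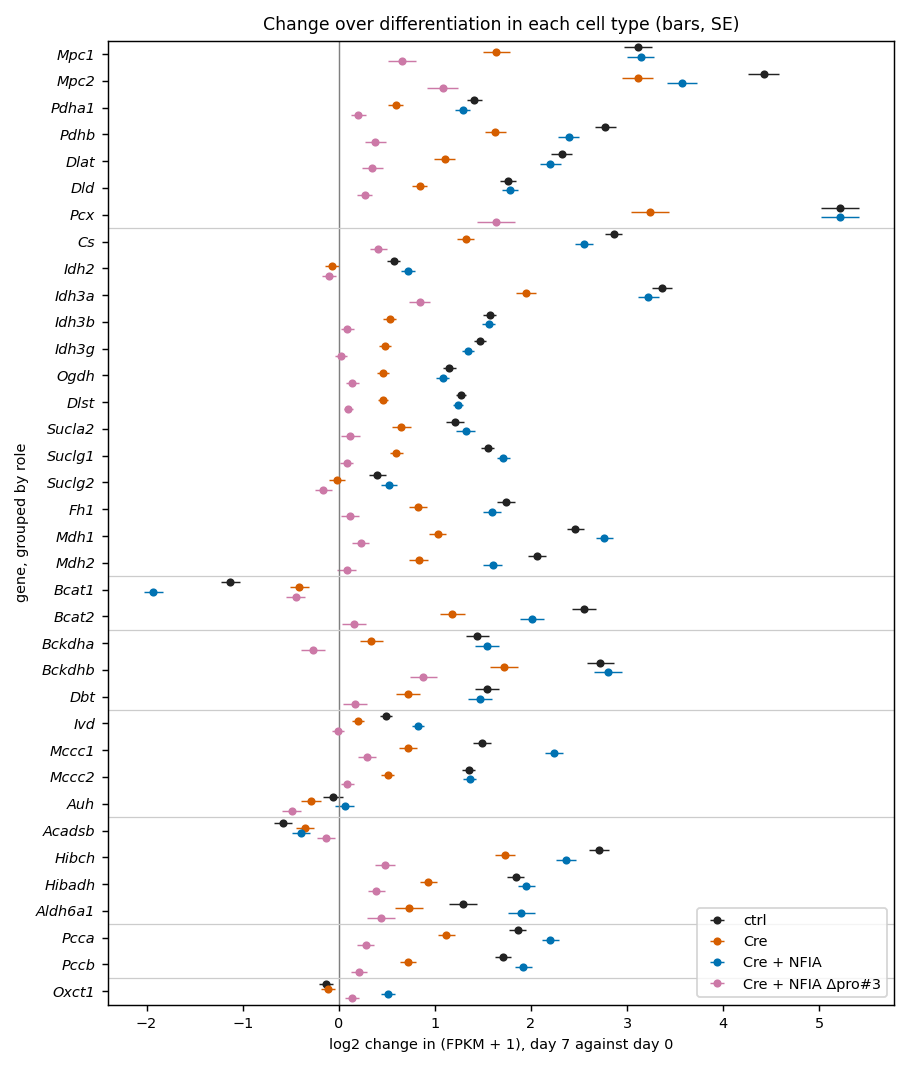
Difference in log2(FPKM + 1) between day 7 and day 0 with its standard error for each member in the 4 cell types. The ctrl and Cre + NFIA points reach furthest right, up to 5.21 for Pcx, the Cre points lie between, and the Cre + NFIA Δpro#3 points cluster near 0, with a median of 0.16.

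Whether a difference between cell types changed from day 0 to day 7 was tested as an interaction over all 24 libraries. For Cre against ctrl 32 members had a lower and 1 a higher difference at day 7 than at day 0 (19.5% and 29.7% of all genes), with a median of -0.92. Pcx changed by -1.97 ± 0.28 (limma adjusted p = 8.74e-06), Cs by -1.54 ± 0.128 (limma adjusted p = 2.32e-08) and Bcat1 by 0.72 ± 0.141 (limma adjusted p = 0.000279). Acadsb, Auh and Oxct1 did not pass. The Aldh6a1 call was lost in 4 of 12 refits that left out a library (limma adjusted p = 0.0546 to 0.1). For Cre + NFIA against Cre 33 members had a higher and 1 a lower difference at day 7 (18.8% and 30.1%), with a median of 0.84. Pcx changed by 1.97 ± 0.28, Mdh1 by 1.73 ± 0.125 and Bcat1 by -1.52 ± 0.141 (limma adjusted p = 6.83e-06, 9.99e-10 and 2.86e-08). Mpc2, already higher with NFIA at day 0, changed by 0.46 and did not pass (limma adjusted p = 0.0982). The Auh call was lost in 7 of 12 refits that left out a library (limma adjusted p = 0.0589 to 0.153). For the mutant against Cre 28 members had a lower difference at day 7 (10.4% of all genes lower, 7.79% higher), with a median of -0.53. Of these calls, Dbt and Mccc1 were each lost in 8 of 12 refits that left out a library (limma adjusted p up to 0.115 and 0.0999). Ogdh was lost in 4 of them, Bckdha in 2 and Pdha1 in 1. Mpc2 changed by -2.03 ± 0.224 (limma adjusted p = 1.23e-05), from higher than Cre at day 0 to lower at day 7, and Pcx by -1.60 ± 0.28 (limma adjusted p = 0.000506). Bcat1, higher with the mutant at both times, changed by -0.04 (95% interval -0.33 to 0.26, limma adjusted p = 0.898).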

How the data were processed

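RNA-seq libraries were prepared with a TruSeq stranded mRNA kit. The deposited FPKM values were made by the authors from reads aligned to mm9 with STAR 2.5.3a, of which uniquely aligned reads on the matching strand were counted per gene and divided by gene length and by the reads on genes. Every value gave back a whole read number (tolerance 0.1), and a library held 7.73 to 14.62 M (1000000) such reads. Members and gene lists were matched by symbol and were chosen with earlier results of these data known. Genes with an FPKM of at least 1 in at least 3 of 24 libraries (12640 of 24825) were tested with limma 3.58.1 (R 4.3.3) with a mean-variance trend on log2(FPKM + 1), a scale that understates the change of low genes. Tests were two-sided with Benjamini-Hochberg adjustment over all genes. Fits within a day used 12 libraries, and fits between days used all 24, in 15 comparisons. With 3 libraries per group counting error and replicate spread limit the precision. No within-group pair of libraries agreed within sampling noise (chi-square per degree of freedom at least 2.17). Samples were grouped by their labels. The deviations of same-numbered replicates correlated at most at 0.201, and the main fits used no block. Members shown with every library were, by rule, the largest rises and falls of each comparison (3 of each at day 7, otherwise 2), the largest change against the majority and the isoenzyme pairs. Auh, Oxct1, Mccc2 at day 7 and other members outside the rule were described because of their values. Alternatives covered the pseudocount, filters, scaling, libraries fitted, replicate block, limma voom on recovered reads and leaving out each library. Tables and figures were made with Python 3.11.15, pandas 2.3.3 and scipy 1.17.1. Gene positions are those of GENCODE vM1 on mm9, given for 34 members. The scripts were tested on simulated data. In the data, 26 symbols had been turned into dates and 2 were duplicated, none of them members. Other pathway genes outside the rule are given as counts, and 1 gene that the rule names is not reported here.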

Additional observations from a re-analysis of the deposited data

Results flagged for a closer look

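The effect of each virus on the members differed between day 0 and day 7 by the interaction test. For Cre against ctrl 33 members passed, all lower but Bcat1, beside 19.5% of all genes lower and 29.7% higher. Bcat1 was at 0.72, Pcx at -1.97 and Cs at -1.54 on the log2(FPKM + 1) scale. For Cre + NFIA against Cre 34 members passed, all higher but Bcat1, beside 18.8% of all genes higher and 30.1% lower. Pcx was at 1.97, Mdh1 at 1.73 and Bcat1 at -1.52. For Cre + NFIA Δpro#3 against Cre 28 members passed, all lower, beside 10.4% of all genes lower and 7.79% higher. Mpc2 was at -2.03 and Pcx at -1.60. In each of these comparisons the summed adipocyte markers also differed at day 7, and their part in the interaction was not tested.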

How the results depend on the processing

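Of 379 passed values of members, 331 kept their direction and their side of the threshold under every alternative. Over 6634 pairs of a passed value and an alternative none reversed and 228 lost the threshold. Fitting only the groups compared gave 18 members for Cre + NFIA Δpro#3 against Cre at day 7 in place of 31, and 12 for Cre + NFIA against ctrl in place of 6. For Cre against ctrl at day 0 the 1 member was lost (0) without a filter, with only the groups compared and with the replicate block. Leaving out each library gave 0 to 1 members there, 9 to 13 for Cre + NFIA against Cre and 5 to 10 for the mutant against Cre at day 0, and 11 to 19 for day 7 against day 0 in the mutant. For the mutant, the 5 at day 0 came without its day 0 replicate 1, and the 11 between days without its day 7 replicate 3. At day 7 the same refits gave 33 to 34 members for Cre against ctrl, 34 to 35 for Cre + NFIA against Cre, 21 to 31 for the mutant against Cre, 34 to 35 for the mutant against full-length NFIA and 4 to 6 for Cre + NFIA against ctrl.

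At a 3-fold, 2-fold and 1.5-fold threshold the members called were 1, 15 and 31 (Cre against ctrl), 2, 20 and 33 (Cre + NFIA against Cre), 1, 4 and 13 (mutant against Cre) and 17, 30 and 33 (mutant against full-length NFIA) at day 7. Between days they were 17, 30 and 30 in ctrl, 7, 12 and 23 in Cre, 21, 30 and 32 in Cre + NFIA and 1, 2 and 5 in the mutant. All these counts take rises and falls together. The share of all genes is given above at 3-fold only, so the 2-fold and 1.5-fold counts show only how the threshold changes the number. Whether same-numbered replicates shared a day is not stated in the sources used here. Their deviations correlated between -0.274 and 0.201 over 54 pairs, with 3 over 0.1. The fit with the replicate block gave 34, 35, 29, 34 and 7 members at day 7 in the order above and 0, 13 and 10 at day 0. Median-of-ratios scaling moved the median of all genes in Cre against ctrl at day 7 from 0.091 to -0.014 and that of the members from -0.91 to -1.04. The causes of these shifts were not tested. Bckdhb, with the fewest reads (63), sets the depth limit.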
